A study of Saccharomyces cerevisiae with 7 samples.

Results

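The divergent promoter region between AAC1 and FET3 on chromosome XIII of Saccharomyces cerevisiae, with 4001 bp from position 386500 to 390500 around it, was described in maps of covalent Spo11-DNA complexes. AAC1 and FET3 are 2 of the 6002 protein-coding genes of the gene table, and the hotspot between them is 1 of 2682 hotspots called outside chromosome III. It was selected on its total signal, whose mean was the highest of these 2682 hotspots, so the totals given here are a description and carry no test. All positions are those of Cer3H4L2, the genome build to which the maps were aligned.

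All cells were of the SK1 background, lacked Sae2, and had spent 6 h in sporulation medium. SPO11+ cells were represented by 5 biological replicates, the last of which was sequenced as 2 technical replicates that were summed here. The control was 1 library of spo11-Y135F cells, whose Spo11 lacks the catalytic tyrosine. The labels of both technical replicates give sae2, whereas the names of their maps say WT, and they were taken as sae2∆.

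Spo11 is the topoisomerase-like protein that makes the double-strand breaks of meiotic recombination, and it stays covalently bound to the 5′ ends of the break. Without Sae2 these ends are not clipped, so Spo11 remains attached where it cut. In budding yeast most breaks lie in hotspots, many of which are nucleosome-depleted promoters, and a divergent gap holds the promoters of the genes on both of its sides. AAC1 encodes a minor isoform of the ADP/ATP carrier of the mitochondrial inner membrane. FET3 encodes the multicopper ferroxidase that works with the permease Ftr1 in high-affinity iron uptake at the plasma membrane and is a target of the iron-responsive activator Aft1.

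CC-seq counts the protein-linked 5′ end of each sequenced fragment as 1 hit at a nucleotide of the Watson or Crick strand. The SPO11+ replicates held 3177210, 8564017, 4502308, 3559541 and 3569290 hits (replicates 1 to 5), and the spo11-Y135F library held 2326054. Values are given as HpM, hits per 1000000 hits of the library. HpM measures the share of a library, so a lower value in 1 library cannot be told apart from more signal elsewhere in it. Replicate 4 stood apart from the other replicates in the shape of the AAC1 to FET3 hotspot, as described below, and results that rest on it are given with its own values. The labels call them biological replicates without saying how the cultures were separated, so the spread between them may be partly technical.

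The hotspot between AAC1 and FET3 ran from 387805 to 388962 (1158 bp) with its smoothed maximum at 388453. It held 6535, 5753, 6546, 4395 and 7529 HpM in SPO11+ replicates 1 to 5, which correspond to 20763, 49266, 29472, 15644 and 26872 hits. The mean was 6151 ± 1167 HpM (SD, n = 5), or 0.912% of all hits inside hotspots. The spo11-Y135F library had 86.4 HpM in the same bounds, from 201 hits (95% Wilson interval 75.3 to 99.2 HpM, counting error only). Every SPO11+ replicate was thus far above the control library, which has no replicate of its own. Per bp, the control had 0.0746 HpM inside the hotspot and 0.0872 HpM over the whole analysed length, so its hits were not concentrated between the genes. Outside hotspots, SPO11+ had 0.0279 ± 0.00348 HpM per bp (SD, n = 5), which was less per bp than in the control.

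**Figure D1:**
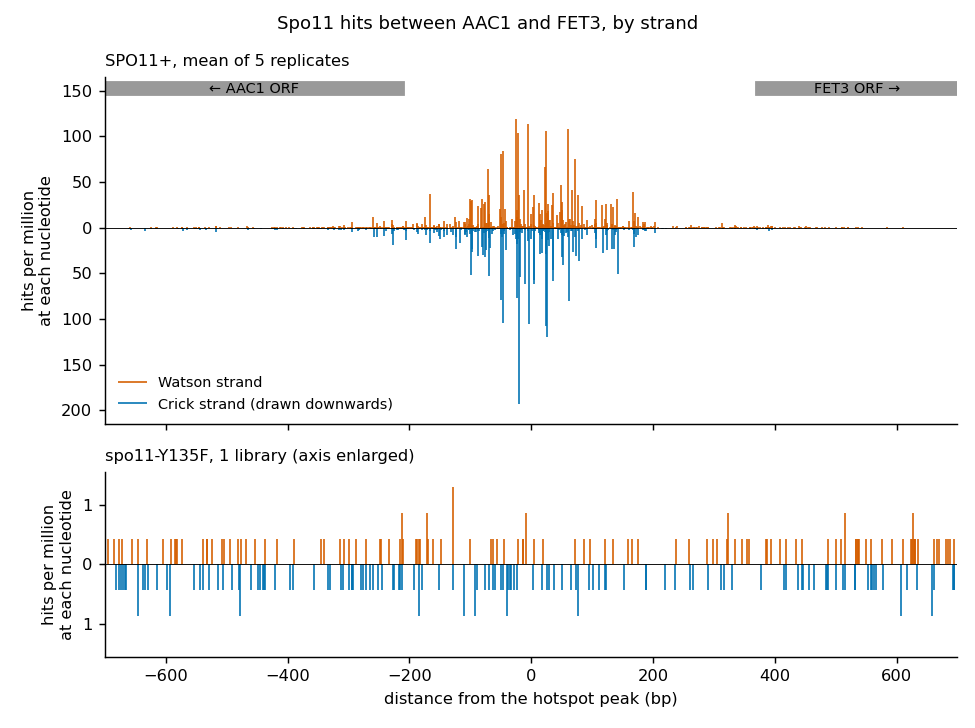
Hits at each nucleotide against the distance from the hotspot peak in bp, for SPO11+ (mean of 5 replicates, above) and spo11-Y135F (1 library, below, on an enlarged axis). Watson hits are drawn upwards and Crick hits downwards, grey bars are the open reading frames, and the strongest Crick nucleotide of SPO11+ reaches 193 HpM where the control has scattered single hits.

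The hotspot ranked first in replicates 1, 3 and 5, 2nd in replicate 2 and 4th in replicate 4. The next strongest, between SND1 and CCT6 on chromosome IV, averaged 5614 ± 438 HpM, and the one between INO2 and YDR124W on the same chromosome, ranked 5th, averaged 4932 ± 707 HpM (SD, n = 5 each). The AAC1 to FET3 hotspot varied more between replicates than most hotspots of its strength. Its coefficient of variation was 19.0%, against a median of 11.4% in the strongest 10% of hotspots, where 22 of 268 had a higher one. Without replicate 4, the lowest here, it was 11.0%. The median of the other hotspots was not recomputed without that replicate, so these 2 values are not a like comparison. The 2 technical replicates of replicate 5 gave 7834 and 7305 HpM.

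Nearly all of this signal lay between the 2 start codons. The gap of 577 bp held 5692 ± 1110 HpM, or 89.7 ± 1.24% of the hits in the 4001 bp examined (SD, n = 5). In each replicate the share was between 87.8% and 91.0%. The gap contained 94 hits, or 40.4 HpM, in spo11-Y135F. Of the hotspot's length, 440 bp lay inside the AAC1 open reading frame and 141 bp inside that of FET3. These stretches had 376 ± 57.5 HpM and 83.4 ± 12.5 HpM in SPO11+, against 36.5 and 9.46 HpM in spo11-Y135F.

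Signal declined with distance into both genes, though not steadily in AAC1, and it reached farther into AAC1. The first 100 bp of the AAC1 open reading frame held 200 ± 49.5 HpM. The 100 bp that begin 200 bp inside it held 45.0 ± 6.73 HpM, and those that begin 300 bp inside held 50.4 ± 7.10 HpM. The 100 bp that begin 400 bp inside it still held 25.5 ± 4.20 HpM. The next 100 bp of AAC1 held 3.57 ± 0.642 HpM in SPO11+ and 5.16 HpM in spo11-Y135F. In FET3 the first 100 bp held 72.6 ± 10.3 HpM, and the 100 bp that begin 200 bp inside held 9.01 ± 0.636 HpM, still above the level of SPO11+ outside hotspots. In spo11-Y135F this last stretch held 9.03 HpM. Over the 1679 bp of FET3 inside the examined stretch, SPO11+ had 0.0813 HpM per bp and spo11-Y135F had 0.0850 HpM per bp. The SPO11+ value was above its 0.0279 HpM per bp outside hotspots, whereas the control's was close to its level over the whole length.

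A second, far weaker hotspot lay at the other end of AAC1, in the gap between its stop codon and BUB2, a gene of the spindle position checkpoint. It ran from 387088 to 387223 (136 bp) and ranked 1676 of 2682. It held 65.8, 84.1, 62.6, 101.4 and 74.5 HpM in SPO11+ replicates 1 to 5, and 12.04 HpM (28 hits) in spo11-Y135F. Replicate 4, the lowest of the 5 in the hotspot between AAC1 and FET3, was the highest here. In this weak hotspot only 38.3 ± 2.46% of the SPO11+ hits were on the Watson strand. In spo11-Y135F the share was 50%, but its 28 hits are too few to set it apart from that of SPO11+.

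Hits within the gap were placed asymmetrically, towards AAC1. The peak lay 209 bp from the AAC1 start codon and 369 bp from that of FET3. The AAC1 side of the examined stretch, divided at the middle of the gap, held 80.1, 84.4, 83.5, 90.3 and 84.2% of the hits in SPO11+ replicates 1 to 5. The mean was 84.5 ± 3.67%, above 50% in 5 of 5 replicates (exact two-sided sign-flip permutation test, p = 0.063, the smallest that 5 replicates allow). In spo11-Y135F the share was 51.5%. Divided instead at the minimum between the 2 highest sub-peaks, which are described next, the share was 56.9%. Distances to start codons rest on a gene table of R64, whereas the paper made Cer3H4L2 by adding loci to Cer3. Aligned on start codons, the signal of chromosome XIII was best matched to that of the other chromosomes at a shift of -7 bp. The best shift was -11 bp for Watson genes and -5 bp for Crick genes, and r was 0.977 at a shift of 0. This compares averaged signal rather than coordinates, so whether these distances are off by several bp was not tested.

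The gap contained 7 sub-peaks in the mean map of both strands, smoothed over 15 bp to each side, with summits at 388378, 388405, 388431, 388478, 388514, 388588 and 388622. They are numbered 1 to 7 from the AAC1 side, and lie 134, 161, 187, 234, 270, 344 and 378 bp from the AAC1 start codon. Neighbouring summits were 27, 26, 47, 36, 74 and 34 bp apart. For its autocorrelation, the site map in the gap was smoothed over 4 bp to each side. The highest local maxima were at distances of 26 bp (r = 0.490), 47 bp (r = 0.499) and 73 bp (r = 0.366). A lower one lay at 37 bp (r = 0.145). These are means over 5 replicates of correlations across positions of 1 hotspot, and they describe the same summits rather than separate evidence.

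Within 10 bp of its summit, sub-peak 4 held 785, 785, 890, 702 and 1055 HpM in replicates 1 to 5, and sub-peak 3 held 775, 838, 897, 843 and 839 HpM. Their means, 843 ± 136 and 838 ± 43.1 HpM (SD, n = 5), differed by less than their spread, sub-peak 4 being the higher in 2 of 5 replicates. Sub-peaks 2, 1 and 5 followed with 493 ± 62.5, 467 ± 93.7 and 447 ± 133 HpM. Sub-peak 3 was above sub-peak 2 in 5 of 5 replicates, but sub-peak 2 exceeded sub-peak 1 in 4 and sub-peak 1 exceeded sub-peak 5 in 3 of 5. Sub-peaks 6 and 7, on the FET3 side, were lowest, with 228 ± 106 and 149 ± 78.5 HpM, and their order held in 5 of 5 replicates. The control had between 1 and 7 hits in each of these 21 bp stretches.

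**Figure D2:**
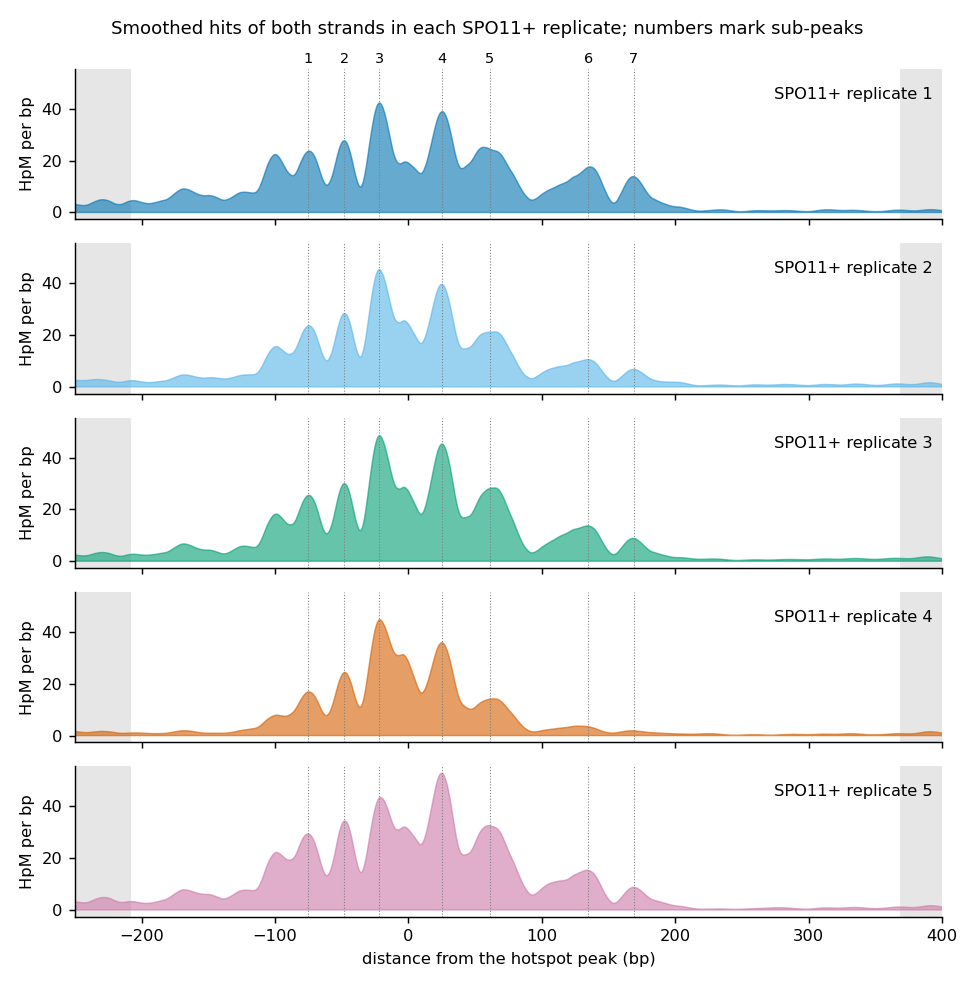
Smoothed HpM per bp of both strands against the distance from the hotspot peak in bp, 1 panel per SPO11+ replicate on a common axis. Dotted lines mark the 7 sub-peaks and grey areas the open reading frames of AAC1 (left) and FET3 (right), and replicate 4 has the central sub-peaks but little signal at sub-peaks 6 and 7.

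The sub-peaks differed in how far replicates spread, and sub-peak 3 was the most stable. The coefficient of variation was 5.14% at sub-peak 3, 12.7% at sub-peak 2, 16.1% at sub-peak 4 and 20.1% at sub-peak 1. It was 29.7% at sub-peak 5, 46.4% at sub-peak 6 and 52.8% at sub-peak 7. Without replicate 4 the values were 11.7% at sub-peak 1, 10.4% at sub-peak 2, 5.93% at sub-peak 3, 14.5% at sub-peak 4, 19.5% at sub-peak 5, 21.9% at sub-peak 6 and 31.1% at sub-peak 7. At sub-peak 3 replicate 4 had 1.01 times the mean of the other 4, but it had 0.65 times that mean at sub-peak 1, 0.53 times at sub-peak 5, 0.23 times at sub-peak 6 and 0.21 times at sub-peak 7.

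At sub-peak 6 replicate 4 held 62.1 HpM, where the other replicates held 200 to 341 HpM. At sub-peak 7 it held 37.1 HpM, where the others held 126 to 255 HpM, of which replicate 1 had the most. The same rule run in each replicate alone found 9, 7, 7, 4 and 7 sub-peaks in replicates 1 to 5, and sub-peaks 5 to 7 had no summit of their own in replicate 4. Replicate 4 was thus lower than all others at every sub-peak but sub-peak 3, where it lay within their range.

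**Figure D3:**
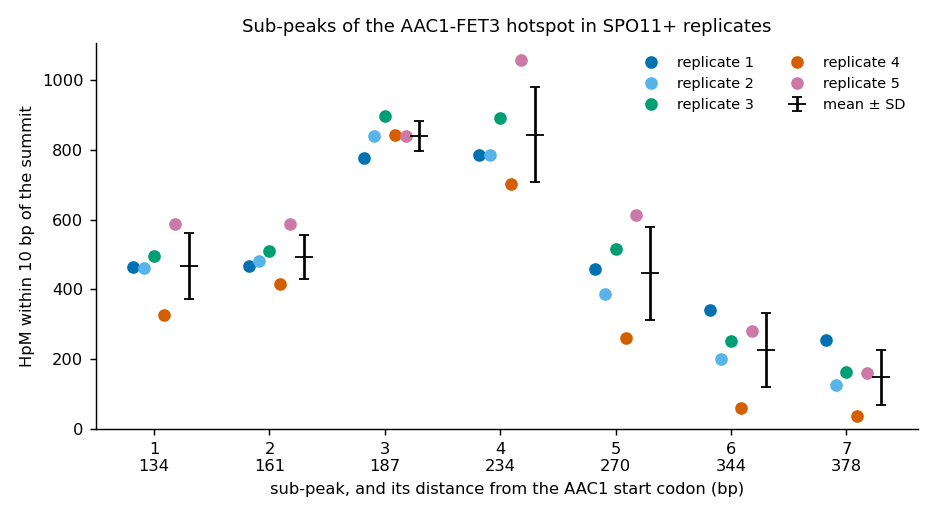
HpM within 10 bp of each sub-peak summit, with 1 point per SPO11+ replicate and the mean ± SD (n = 5) beside the points. Replicates lie close together at sub-peak 3 (775 to 897 HpM) and apart at sub-peak 7 (37.1 to 255 HpM), where replicate 4 is lowest and replicate 1 highest.

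This shape was summarised as the share of the hits within 300 bp of the peak that lay within 75 bp of it. The share was 56.04, 66.2, 65.0, 78.0 and 62.9% in replicates 1 to 5. The hits within 75 bp came to 3502, 3580, 4020, 3214 and 4530 HpM, whereas those of the rest of the hotspot came to 3033, 2172, 2526, 1180 and 2999 HpM. Replicate 4 exceeded the mean of the other replicates by 15.5 percentage points here, against a median of 1.45 points over the 268 hotspots of the strongest 10%. None of the 268 had a larger excess, a description that was chosen after the values had been seen. Replicate 4 had the highest share of the 5 in 121 of the 268 and the lowest in 40. The corresponding shares of the SND1 to CCT6 hotspot were 48.5, 47.3, 49.3, 45.1 and 48.5%, and those of INO2 to YDR124W 81.6, 80.4, 83.9, 85.4 and 84.4%. Replicate 4 was thus the lowest in one and the highest in the other.

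Across the 1158 single sites of the hotspot, replicates correlated with r of 0.962 to 0.991 in the 6 pairs without replicate 4 and 0.880 to 0.962 in the 4 pairs with it. These correlations run across sites, which are not independent replicates.

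Spo11 leaves a short 5′ overhang, so the Watson and Crick hits of 1 break are found at neighbouring coordinates. Within the hotspot, Watson hits at a position correlated best with Crick hits 1 bp higher in 5 of 5 replicates, with a mean r of 0.890 across positions hit on both strands. The second best of the 41 offsets examined had a mean r of 0.274. Each Watson position and the Crick position 1 bp above it were therefore joined as 1 site, named by its Watson coordinate.

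Cleavage was spread over many such sites. On average 24.4 ± 4.83 sites held 50% of the hotspot's hits, with 27, 24, 24, 17 and 30 sites in replicates 1 to 5. The 10 strongest sites held 28.3, 32.2, 32.1, 38.7 and 26.4%, a mean of 31.5 ± 4.71% (SD, n = 5). Replicate 4 was the most concentrated by both measures.

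The strongest site, at 388432 in sub-peak 3, held 298, 299, 328, 296 and 258 HpM in replicates 1 to 5 and was first within the gap in each of them. Its mean of 296 ± 24.9 HpM was 4.99% of the hotspot and ranked 10th among all sites outside chromosome III. It was the only one whose rank was fixed. Site 388478 (225 ± 28.7 HpM, in sub-peak 4), site 388448 (219 ± 49.5 HpM) and site 388428 (196 ± 14.0 HpM) came next, and each stood above the one after it in only 3 of 5 replicates. Site 388448 held 144, 216, 247, 276 and 212 HpM, so replicate 4 was the highest of the 5 at this site close to the peak.

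The remaining strong sites were 388406 (189 ± 14.5 HpM), 388514 (188 ± 51.3 HpM), 388476 (174 ± 29.2 HpM), 388403 (160 ± 23.6 HpM), 388382 (117 ± 22.2 HpM) and 388525 (107 ± 27.9 HpM). Of these, 388514 and 388525 lie in sub-peak 5, where replicate 4 held 111 and 61.5 HpM, below the other 4 replicates at both. All 10 sites were within the gap. The control had at most 1 hit on either strand at any of them.

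On the Watson strand the strongest single nucleotide was 388428, with 107, 138, 130, 99.5 and 123 HpM in replicates 1 to 5. On the Crick strand it was 388433, with 210, 214, 210, 164 and 164 HpM. Their means were 119.5 ± 15.8 and 193 ± 25.8 HpM. Among all nucleotides of their strand outside chromosome III they ranked 22nd and 7th.

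Both strands contributed almost equally to the region as a whole. The Watson share of the examined stretch was 48.0, 48.8, 47.8, 48.4 and 48.8% in replicates 1 to 5, a mean of 48.4 ± 0.473%. It was below 50% in 5 of 5 replicates (exact two-sided sign-flip permutation test, p = 0.063, the smallest possible). The Watson share of all hits outside chromosome III was 50.4 ± 0.0705%, and that of the same stretch was 48.2% in spo11-Y135F. The shift from parity was small, and the control's share, from 757 hits, lay on the same side.

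Single sites were far less balanced than the whole. Watson and Crick hits were compared at each site with edgeR's quasi-likelihood test, with the replicate as a block, over the 32293 sites outside chromosome III that had at least 100 hits. Of the 170 such sites in the examined stretch, 48 had more Watson hits and 50 more Crick hits at an adjusted p (Benjamini-Hochberg over all sites) under 0.05. Genome-wide 28.9% of tested sites were called for Watson and 26.8% for Crick, 55.7% together, against 57.6% here. With a difference of at least 2-fold, 23 sites were called for Watson and 28 for Crick, against 18.1% and 16.0% of all sites tested. With at least 100 hits per site, imbalance was therefore about as common between AAC1 and FET3 as elsewhere. With no filter beyond 1 hit, 4.83% of sites were called here, against 0.636% of all sites tested. The number of calls moves with the minimum number of hits. Without replicate 2, the deepest, 60 sites were called and 136 tested (44.1%, against 49.3% genome-wide).

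Of the 10 strongest sites, 6 were called, and only 388525 by more than 2-fold. Site 388432 had 88.8, 85.0, 118, 132 and 93.9 HpM on the Watson strand and 210, 214, 210, 164 and 164 HpM on the Crick strand of replicates 1 to 5. The strands did not overlap, and the log2 ratio of Watson over Crick was -0.91 ± 0.13 (SE; edgeR adjusted p = 1.316e-06). Site 388525 leaned the other way, with 74.9, 84.3, 96.2, 43.0 and 77.9 HpM on Watson and 32.1, 28.5, 42.2, 18.5 and 35.0 HpM on Crick. Its log2 ratio was 1.28 ± 0.14 (SE; edgeR adjusted p = 3.926e-09), and within every replicate Watson was the higher.

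Sites 388428 and 388514 were also called for Watson, with log2 ratios of 0.64 and 0.48, each in 5 of 5 replicates. Sites 388476 and 388406 were called for Crick, with log2 ratios of -0.72 and -0.31, each in 5 of 5 replicates. The edgeR adjusted p of these 4 lay between 2.031e-05 and 0.03286. For 388478, 388448, 388403 and 388382 it lay between 0.05629 and 0.8608, with log2 ratios from -0.17 to 0.30.

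**Figure D4:**
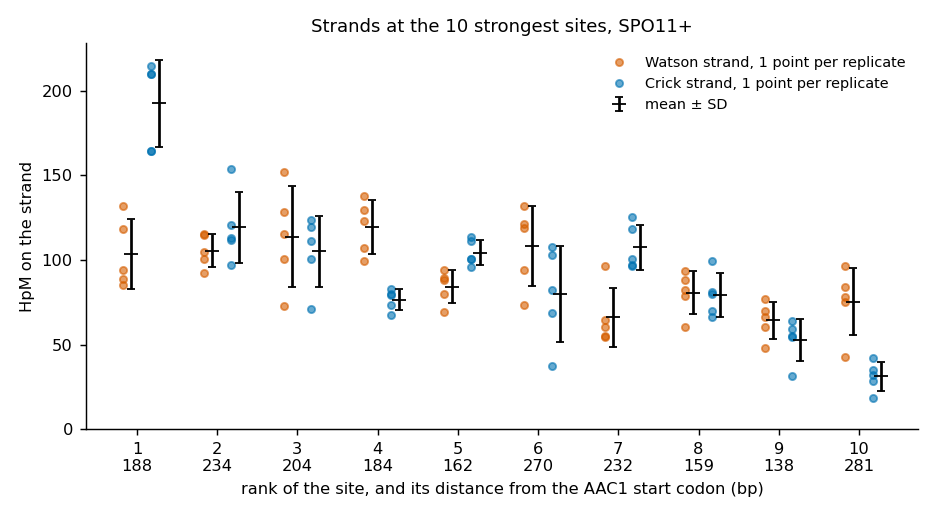
HpM on the Watson and Crick strands at the 10 strongest sites of SPO11+, ordered by rank, with 1 point per replicate and the mean ± SD (n = 5) beside them. The strands separate without overlap at ranks 1 and 5 (Crick higher) and at ranks 4 and 10 (Watson higher, at rank 10 with 43.0 to 96.2 HpM against 18.5 to 42.2 HpM on Crick), and overlap at the other ranks.

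The most one-sided sites were weak and lay next to stronger ones. The Crick-rich extreme was 388427, with 2, 1, 0, 2 and 1 Watson hits and 18, 70, 107, 80 and 13 Crick hits in replicates 1 to 5 (log2 ratio -5.40 ± 0.39 SE, edgeR adjusted p = 2.235e-12). Sites 388447 and 388375 followed with log2 ratios of -4.01 and -3.53. The Watson-rich extreme was 388411, with 9, 81, 48, 41 and 18 Watson hits and 0, 2, 0, 2 and 2 Crick hits (log2 ratio 4.88 ± 0.41 SE, edgeR adjusted p = 3.568e-11). Sites 388531 and 388521 followed with 4.77 and 4.24.

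Sites 388427 and 388447 each adjoin, on the AAC1 side, one of the 10 strongest sites. In all, the site 1 bp to the AAC1 side was richer in Crick hits at 7 of the 10 strongest sites, and the site 1 bp to the FET3 side was richer in Watson hits at 8. Beside the 1000 strongest sites of the genome, 69.7% of sites at 1 bp lower coordinates were richer in Crick hits and 74.3% of sites at 1 bp higher coordinates were richer in Watson hits. The arrangement beside the sites of AAC1 and FET3 was thus close to that of strong sites in general.

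Summed from 200 to 600 bp on each side of the peak, the direction in which the strands differed changed between replicates. On the AAC1 side the Crick share was 67.5, 63.0, 52.3, 49.0 and 61.5% in replicates 1 to 5, from 9186 hits. On the FET3 side the Watson share was 66.1, 60.3, 41.7, 36.1 and 65.5%, from 5111 hits. On these strands the sequenced fragments run away from the peak, and they prevailed on both sides in replicates 1, 2 and 5. In replicates 3 and 4 the strands were nearly equal over the AAC1 side as a whole. The other strand, Crick, prevailed on the FET3 side in both. Deeper inside the AAC1 open reading frame, however, Crick prevailed in every replicate. Its share was 52.8 to 76.7% in the 100 bp that begin 200 bp inside and 63.9 to 73.5% in the next 100 bp. The Watson share in the 100 bp that begin 200 bp inside FET3 was 45.5 to 83.3%.

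Replicates 3 and 4 also lacked an excess of outward strands over all 2318 hotspots that had such flanks to themselves. Pooled over these, the Crick share on the low-coordinate side was 54.9, 55.7, 48.4, 48.9 and 53.7%, and the Watson share on the high-coordinate side was 55.6, 56.3, 49.1, 50.0 and 54.6%. The pooled shares of replicates 3 and 4 were thus near 50%, without the clear reversal seen on the FET3 side. In the mean of the replicates, 42.8% of the hotspots had outward strands above 50% on both sides. The control had 76 and 63 hits in the flanks of AAC1 to FET3, with outward shares of 56.6% (95% Wilson interval 45.4 to 67.1%) and 52.4% (40.3 to 64.2%).

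The AAC1 to FET3 hotspot was set against the other divergent hotspots of similar strength, between SND1 and CCT6 (chromosome IV, 835066 to 836407) and between INO2 and YDR124W (chromosome IV, 699321 to 700149). SND1 encodes a protein that targets others to the endoplasmic reticulum, CCT6 a subunit of the cytosolic chaperonin, and INO2 an activator of phospholipid synthesis genes. The measures compared, strand share and concentration, played no part in the selection. For each of 6 comparisons, differences were formed within replicates (exact two-sided sign-flip permutation test, Benjamini-Hochberg over the 6). With 5 replicates no adjusted p under 0.05 was possible.

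Against INO2 to YDR124W, cleavage at AAC1 to FET3 was less concentrated. The 10 strongest sites held 31.5 ± 4.71% of hits at AAC1 to FET3 and 53.3 ± 1.65% at INO2 to YDR124W, a difference of -21.8 ± 4.01 percentage points (SD, n = 5; lower in 5 of 5 replicates, adjusted permutation p = 0.09375). It took 24.4 ± 4.83 sites to hold 50% of the hits at AAC1 to FET3 and 9 ± 1 sites at INO2 to YDR124W. The Watson share was 48.6 ± 0.525% in the AAC1 to FET3 hotspot and 56.7 ± 0.979% in the other, and again the difference, -8.13 ± 1.01 points, had the same sign in 5 of 5 replicates (adjusted permutation p = 0.09375).

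Against SND1 to CCT6 the contrast was smaller and turned the other way in concentration. It took 24.4 ± 4.83 sites to hold 50% of the hits at AAC1 to FET3 and 33.2 ± 3.27 at SND1 to CCT6, a difference of -8.80 ± 5.54 sites (lower in 5 of 5 replicates, adjusted permutation p = 0.09375). The differences in the share of the 10 strongest sites (4.66 ± 5.08 points) and in Watson share (-1.38 ± 0.941 points) had 1 replicate of the opposite sign each (adjusted permutation p = 0.125). Without replicate 4 the difference in the share of the 10 strongest sites was 2.62 points. Replicate 4, the narrowest at AAC1 to FET3, had the largest difference from SND1 to CCT6 in both measures of concentration.

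Other genes of the same pathways were examined in the regions upstream of their start codons, as far as the next gene. The lists held 28 genes, namely the ADP/ATP carriers, high-affinity iron uptake with its copper supply, cell surface reductases, siderophore transporters, cell wall mannoproteins and further iron response genes. The upstream regions of 22 of the 28 overlapped a hotspot, and of 20 of 26 without AAC1 and FET3, against 61.7% of 5762 regions of all genes. FET3, FTR1 and their vacuolar paralogs FET5 and FTH1 all had one.

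None of the other lists' regions approached the signal between AAC1 and FET3, whose 9.87 HpM per bp lay at the 99.97th percentile of all upstream regions. Since AAC1 to FET3 was selected on its total signal, this high place is a description only. The next was that of CTR1, a plasma membrane copper transporter, with 2.88 HpM per bp (1542 ± 224 HpM), followed by CCC2, the pump that loads copper onto Fet3 in the secretory pathway, with 2.62 (1390 ± 277 HpM). FTH1, the partner of Fet5 in the vacuolar membrane, had 1.84 HpM per bp (569 ± 136 HpM). SIT1, a siderophore transporter, had 1.55 (696 ± 239 HpM) and MRS4, a mitochondrial iron carrier, had 1.50 (904 ± 409 HpM). AFT2, the paralog of Aft1, had 1.23 (530 ± 46.3 HpM).

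Next in density came FTR1, AFT1, FET5, FRE1, FIT3 and HMX1, all between 0.25 and 1 HpM per bp. FTR1 had 639 ± 107 HpM, AFT1 728 ± 132 HpM, FET5 200 ± 74.8 HpM and the reductase gene FRE1 481 ± 55.1 HpM. FIT3, a mannoprotein of the cell wall, had 185 ± 71.6 HpM, and HMX1, a heme oxygenase, 257 ± 30.0 HpM. Of the carriers, PET9, the major ADP/ATP carrier, had 124 ± 25.7 HpM with an overlapping hotspot, and AAC3, the isoform used without oxygen, had 47.2 ± 6.60 HpM and none. Per bp, PET9 and AAC3 had 0.254 and 0.0654 HpM in SPO11+, against 0.0755 and 0.0894 HpM in spo11-Y135F, and both were above the SPO11+ level outside hotspots.

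The other regions with a hotspot were those of SMF3, MAC1, ARN1, FIT2, FET4, TIS11 and FRE2, with 50.0 to 342 HpM. SMF3 encodes a vacuolar iron transporter, MAC1 the activator of copper uptake genes, ARN1 a siderophore transporter, FET4 a low-affinity iron transporter and TIS11 an RNA-binding protein that acts on mRNAs in low iron. In spo11-Y135F the 27 regions of the lists had between 0.0659 and 0.113 HpM per bp.

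Replicate 4, low on the shoulders between AAC1 and FET3, was also low at many of these promoters. It had 4037 HpM in the gap between AAC1 and FET3, where replicates 1, 2, 3 and 5 had 6064, 5284, 6065 and 7011 HpM, or 0.66 times their mean. At MRS4 it had 340 HpM, where the others had 1425, 833, 776 and 1145 HpM. At ARN1 it had 64.6 HpM, where the others had 261, 140, 122 and 225 HpM. Replicate 4 lay below every other replicate in all 3 regions.

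Outside AAC1 and FET3, replicate 4 was the lowest of the 5 and under 0.75 times the mean of the others at 13 of 26 regions, against 5.88% of 4646 upstream regions with at least 20 HpM. These were MRS4 (0.33 times), ARN1 (0.35), ARN2 (0.36), FET5 (0.36), SIT1 (0.46), SMF3 (0.49), TIS11 (0.49), FIT3 (0.50), FTH1 (0.58), FRE2 (0.60), CCC2 (0.64), AFT1 (0.65) and ATX1 (0.68), the last encoding the copper chaperone that supplies Ccc2. ARN2 and ATX1 overlapped no hotspot. Per bp, ARN2, FRE2 and ATX1 had only 0.0470, 0.0518 and 0.143 HpM in SPO11+, where the level outside hotspots was 0.0279. The median ratio was 0.76 over the 26 regions and 1.01 over all 4646.

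The lists did not move as a whole. At FTR1, whose product is the permease partner of Fet3, replicate 4 had 804 HpM, where the others had 517, 628, 583 and 661 HpM, and at FET4 it had 438 HpM, where the others had 312, 358, 277 and 326 HpM. It was the highest and over 1.33 times the mean of the others at these 2 regions. At CTR1, FRE1, PET9 and AAC3 it had 1.26, 1.13, 1.27 and 1.22 times that mean, being the highest of the 5 at all of them but PET9, and at AFT2, MAC1 and HMX1 1.03, 0.95 and 0.92 times.

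Replicate 1 was the highest and over 1.33 times the mean of the others at 11 of the 26 regions, against 3.16% of all regions. These were FET5, FTH1, FRE2, FRE3, ARN1, ARN2, SIT1, FIT3, TIS11, SMF3 and MRS4, all but FRE3 among those low in replicate 4. FRE3, like ARN2, overlapped no hotspot, and its 0.0288 HpM per bp was close to the SPO11+ level outside hotspots. With replicate 4 left out of the mean, 8 of the 26 were above the limit, against 2.97% of all regions. Replicates 2, 3 and 5 passed either limit at 0 to 3 of the 26 regions. The rule for a low or high replicate was set after these values had been seen, each replicate is 1 sample, and no test was made. The labels give nothing that tells the replicates apart.

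**Figure D5:**
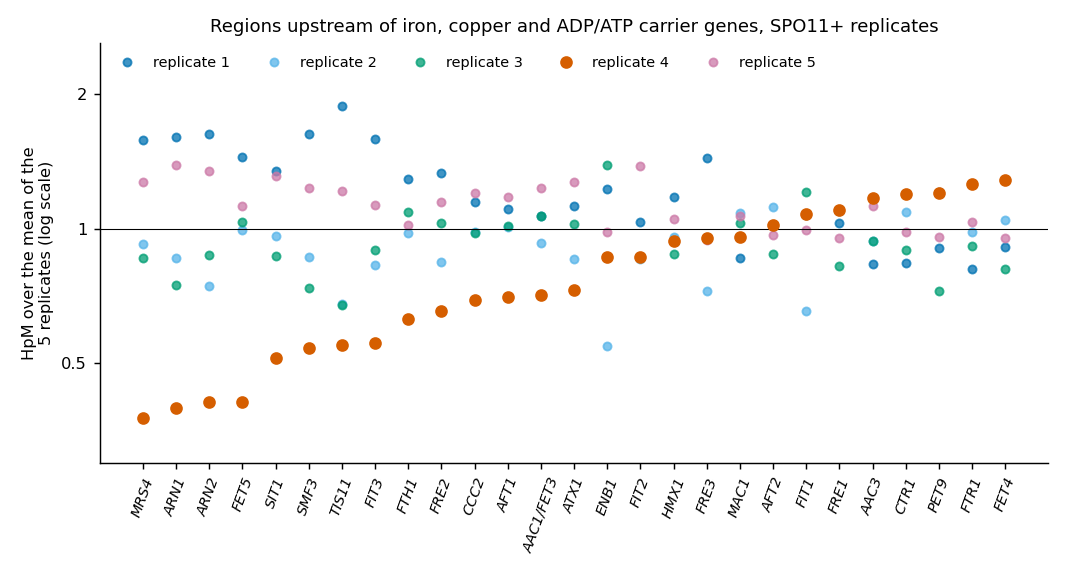
HpM of each SPO11+ replicate over the mean of the 5 replicates (log scale) in the regions upstream of the listed genes, ordered by replicate 4 over the mean of the others. AAC1 and FET3 share 1 region, and replicate 4 lies below every other replicate from MRS4 (0.33 times the mean of the others) to ATX1 (0.68 times), AAC1/FET3 among them, and above every other at FTR1, FET4, CTR1, AAC3 and FRE1.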

How the data were processed

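The authors aligned read pairs with bowtie2 (version not given in the sources used here) to Cer3H4L2, a build with loci added on chromosome III, placed the protein-linked 5′ end of each pair on its strand, and masked repeated sequence (rDNA, telomeres, retrotransposons and their terminal repeats). The deposited values used are raw counts of such ends per nucleotide and strand. The authors' average map was not used, since it holds no replicates. Chromosome III was left out of hotspot calls and site tests, but not of library totals.

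Counts of the 2 technical replicates were summed. Hotspot calls used the mean HpM map (Hann window of 100 bp to each side, over 3 times the mean, at least 25 bp, merged under 200 bp), and sub-peaks on sites smoothed over 15 bp with a prominence of at least 10% of the maximum. Strands were tested with edgeR 4.0.16 (quasi-likelihood, replicate block, library totals, at least 100 hits), the replicates' measures with exact sign-flip permutations. Simulated data tested the steps. A planned description of the sequence at cleavage sites was not analysed here. Text names the members, the 10 strongest sites, every sub-peak, up to 3 called sites in each direction with the largest strand difference, listed genes with a hotspot upstream and 2 other divergent hotspots. The members, lists and rules were chosen with earlier results of these data known.

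Alternatives covered bounds, scale, smoothing, prominence, depth, count filters, TMM factors, DESeq2 1.42.0, a pooled exact test, the hotspot threshold and each replicate left out. Python 3.11.15, numpy 2.4.6, scipy 1.17.1 and R 4.3.3 were used.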

Additional observations from a re-analysis of the deposited data

Results flagged for a closer look

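Of 55 sets of 5 SPO11+ replicate values examined, 1 held a replicate far from the other 4. In the 440 bp of the hotspot inside the AAC1 open reading frame, replicate 4 held 278 HpM, where the others held 383 to 426 HpM, and the gap to the nearest of them was 0.714 of the whole range. Chance alone gives such a gap in about 1 of 20 independent sets. The 55 sets share hits and replicates, so 1 of 55 cannot be compared with that rate. The rule flagged neither sub-peak 6 nor sub-peak 7, where replicate 4 had 0.23 and 0.21 times the mean of the others.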

How the results depend on the processing

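Of 113 alternative values for 14 results, 96 kept their direction and side of the threshold where there was a test, and otherwise stayed within the spread or 1.5 times. One of these, the AAC1-side share, was nevertheless 56.9% with the division at the minimum between the 2 highest sub-peaks, against 84.5% at the middle of the gap. No direction was reversed. Per 1000000 hits inside hotspots, the hotspot between AAC1 and FET3 held 9163, because this scale leaves out all other hits. With a Hann window of 25 bp to each side 3 sub-peaks were found, and with a prominence of 20% 4. Counted as single nucleotides of each strand, 47 held 50% of the hits, as each site then enters as 2. Strand imbalance was called at 192 of 473 sites with at least 20 hits, or 40.6% against 36.5% of all sites tested. At least 2-fold were 148 of them, against 31.5% of all sites. With at least 500 hits 36 of 61 were called (59.0% against 65.9%), 11 of them at least 2-fold (27.4% of all sites). The exact test on pooled counts called 369 of 850 (43.4% against 37.2%), 278 of them at least 2-fold (31.8% of all sites). With no filter beyond 1 hit, 119 of 2465 sites were called (4.83% against 0.636%). Of these, 104 were called at 2-fold or more (0.597% of all sites). With 1 replicate left out, 60 to 83 sites were called, and 30 to 46 at 2-fold or more, the lowest in both cases without replicate 2, the deepest library. The called share was then 44.1 to 57.2% here and 49.3 to 57.9% of all sites tested. These counts change with the number of sites tested.

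With the technical replicates counted as separate samples, 4 differences reached an unadjusted exact permutation p of 0.03125, the smallest that 6 values allow. They were -8.67 sites against SND1 to CCT6, and -7.93 points in Watson share, -22.4 points in the 10 strongest sites and 16.3 sites against INO2 to YDR124W. Technical replicates are not independent. Leaving out each replicate for these differences and for the promoter lists was chosen after the data had been seen. No paired analysis was possible because the genotypes share only 1 replicate number. The control is 1 library, and sites with few hits bound what can be called.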
